A study of Rattus norvegicus with 18 samples.

Results

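Liver RNA of rats was read on 18 arrays, which were counted as 15 animals. In it, 8 genes stood at either a higher or a lower signal level from animal to animal, with no animal between the levels: Ubd, Fam111a, Marveld1, Gpm6a, Cish, Dguok, C10h5orf15 and Abhd3. They are 8 of 14217 genes that the array names, and they are represented by 13 of 31042 probe sets. In each of the 8 genes, the 18 array values of a probe set, once sorted, had a gap of at least 1.5 log2 units. At least 2 arrays lay on each side of the gap. The rule alone did not decide membership, since 12 other genes, counted below, met it as well. The 8 genes were chosen with earlier results of these data known. The diet of the animals was not used in the choice, whereas the values themselves were, so the gaps and levels below are descriptions and carry no test. In all, 30 probe sets (0.0966% of 31042) had such a gap, and 8 of these belonged to the genes described here, 1 for each gene; that probe set is called the selected one. The other 22 were 13 probe sets of 12 other genes, 6 of them RT1 genes of the major histocompatibility complex, and 9 probe sets without a gene symbol.

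The livers came from adult male Sprague Dawley rats, specific pathogen free, that had been fed for 8 weeks and then fasted overnight. The HFD+PE group ate a high fat diet and was given an extract of pomegranate skin, 150 mg per kg of body weight each day. The HFD group had the same kind of diet without extract, and the chow group a chow diet. The labels describe the HFD livers as fatty and the HFD+PE and chow livers as normal. Each group had 6 Affymetrix arrays, and all values are log2 signals rounded to 0.1, on which 1 unit is a doubling of signal. Signal levels of different probe sets cannot be compared as amounts of RNA.

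In each group, 1 pair of arrays was so alike that it was averaged and counted as 1 animal: HFD+PE 3 and 4, HFD 1 and 2, and chow 3 and 4. Outside the member genes and other probe sets with such gaps, 0 probe sets differed by more than 2 log2 units within these 3 pairs, against 7 to 96 in the other 150 pairs. Each group was therefore counted as n = 5 animals, although the labels call all 18 arrays biological replicates. Within the 3 pairs, the 13 member probe sets differed by at most 0.6, which is less than the smallest of the 8 gaps, 1.8. The liver markers Alb, Apoa1, Ttr, Tat, Cps1 and Serpina1 averaged 12.87 to 13.41 in every animal, where array medians were 5.4 to 5.5. Mean levels of the other marker lists ran from 7.07 to 9.10 for macrophages, 4.54 to 5.03 for lymphocytes, 4.82 to 5.25 for cholangiocytes, 8.25 to 8.88 for endothelial cells, 6.90 to 7.41 for stellate cells, 5.66 to 6.56 for mesothelial cells and 7.65 to 9.40 for erythrocytes. The added hybridization controls split the arrays into 5 with a high level (2 HFD+PE, 0 HFD and 3 chow) and 13 with a low one.

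Sprague Dawley rats are outbred, so individual rats carry different alleles at many genes. A probe set is a group of short probes that reads a stretch of a transcript, usually near its end. A low signal can therefore stand for little transcript, for a transcript that lacks this stretch, or for sequence that differs from the probes. In liver, some genes also switch within hours, such as those driven by the pulses of growth hormone that male rats release. In bulk RNA, fewer cells of a type and less RNA per cell cannot be told apart.

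Cish encodes a suppressor of cytokine signalling that is induced by the transcription factor STAT5 and that restrains growth hormone and other cytokine receptors. The 250 bases before its start are shown because they hold several copies of the STAT motif TTCNNNGAA, which reads the same on both strands; the copies are in capitals. The sequence is from RefSeq, build GRCr8, at chr8:116850719-116850968 on the plus strand.
Cish promoter: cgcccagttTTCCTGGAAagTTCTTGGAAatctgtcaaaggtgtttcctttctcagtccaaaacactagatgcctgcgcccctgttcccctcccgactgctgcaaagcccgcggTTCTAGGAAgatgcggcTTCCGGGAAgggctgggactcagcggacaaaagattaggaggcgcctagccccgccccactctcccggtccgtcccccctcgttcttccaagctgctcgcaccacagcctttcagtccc
There are 4 matches that do not overlap each other, the first starting 241 and the last 119 bases before the start. Of 33469 RefSeq promoters of the same length, 7.67% held at least 1 match and 0.418% at least 2, and 2 promoters, Cish among them, held at least 4. A match describes the letters and does not show that a factor is bound.

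The selected Cish probe set, 1378586_at, read 8.4, 4.8, 5.0, 4.9 and 7.4 in HFD+PE animals 1, 2, 3-4, 5 and 6. It read 8.55, 5.2, 7.0, 4.9 and 7.9 in HFD animals 1-2, 3, 4, 5 and 6, and 7.4, 8.0, 4.85, 8.1 and 7.7 in chow animals 1, 2, 3-4, 5 and 6. The higher level thus held 2 of 5 HFD+PE, 3 of 5 HFD and 4 of 5 chow animals, and every group had animals at both levels. The group means were 6.10 ± 1.68 in HFD+PE, 6.71 ± 1.62 in HFD and 7.21 ± 1.35 in chow (SD, n = 5 each). The second Cish probe set, 1388233_at, which the choice of genes did not use, was dimmer but separated the same animals: it read 4.8 to 5.7 in the 9 animals at the higher level and 4.0 to 4.4 in the 6 at the lower level. The distance between 4.4 and 4.8 is no larger than the difference between arrays HFD 1 and HFD 2, counted as 1 animal, which read 6.0 and 5.4.

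Among 54 other probe sets with a gap of at least 1.0 over the 15 animals, 2 shared the Cish split in full. Those of Gadd45g, a growth arrest and DNA damage response gene, and Rgs3, which limits G protein signalling, put each of the 15 animals on the same side as Cish did. Gadd45g read 10.9, 6.2, 7.1, 7.7 and 8.9 in HFD+PE animals 1, 2, 3-4, 5 and 6, 10.5, 7.7, 8.9, 6.8 and 9.3 in HFD animals 1-2, 3, 4, 5 and 6, and 10.3, 10.8, 7.7, 9.8 and 9.9 in chow animals 1, 2, 3-4, 5 and 6. Its lowest value among the animals at the higher Cish level, 8.9 in HFD+PE 6 and HFD 4, was thus above its highest among the others, 7.7. Rgs3 read 10 to 11 in the first set of animals and 7.95 to 8.9 in the second. The promoters of Gadd45g and Rgs3 held 0 matches to TTCNNNGAA in the same window.

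Of the growth hormone, JAK-STAT and SOCS list, 15 of 16 genes were measured. In 2 of them the 9 highest animals were the 9 at the higher Cish level, and these 2 were picked out after their values were seen. Socs2, a further suppressor of growth hormone signalling, read 6.3, 4.7, 5.55, 5.7 and 7.6 in HFD+PE animals 1, 2, 3-4, 5 and 6. It read 8.6, 5.7, 6.6, 5.3 and 6.2 in HFD animals 1-2, 3, 4, 5 and 6, and 7.0, 6.7, 5.3, 7.0 and 7.2 in chow animals 1, 2, 3-4, 5 and 6. Onecut1, a hepatocyte transcription factor gene known to respond to growth hormone in rat liver, ran from 7.70 to 11.20 over the animals and shared the split as well, with 8.9 in chow 1 as the lowest value on the higher side and 8.7 in HFD+PE 2 as the highest on the lower. Bcl6, a repressor that growth hormone lowers in rodent liver, tended the other way without a full split. It too was picked out after its values were seen. It read 10 to 11.05 in the 6 animals at the lower Cish level and 7.5 to 10 in 8 of the 9 at the higher one, the exception being chow 1 at 10.5. HFD 5, at the lower Cish level, and HFD 1-2, chow 5 and chow 6, at the higher one, all read 10. In chow, the animals at the higher Cish level read 9.9 to 10.5, and chow 3-4, at the lower one, read 11.05. Over all 31029 probe sets of other genes, 25 had the same animals on top and 10 had them at the bottom, 0.113% together. This share depends on how many animals lie on each side. It was larger for the splits with only 2 or 3 animals at the lower level, at 0.906% for Marveld1, 0.822% for Abhd3 and 0.303% for Ubd, and smaller for the others, at 0.0355% for Fam111a, 0.029% for Gpm6a, 0.0161% for Dguok and 0.00645% for C10h5orf15. The shares did not follow these counts alone, since Gpm6a, with 4 animals at the lower level, had a smaller share than Cish, with 6. Apart from Socs2 and Onecut1, no measured gene of the list shared the Cish split in full, in either direction. Prlr, of the same list, varied widely without following it. It read 6.6 to 9.8 in the 9 animals at the higher Cish level and 7.25 to 8.8 in the 6 at the lower one. Ghr, the growth hormone receptor, ranged only from 11.20 to 11.90. The part of growth hormone in the Cish split was not tested.

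**Figure D1:**
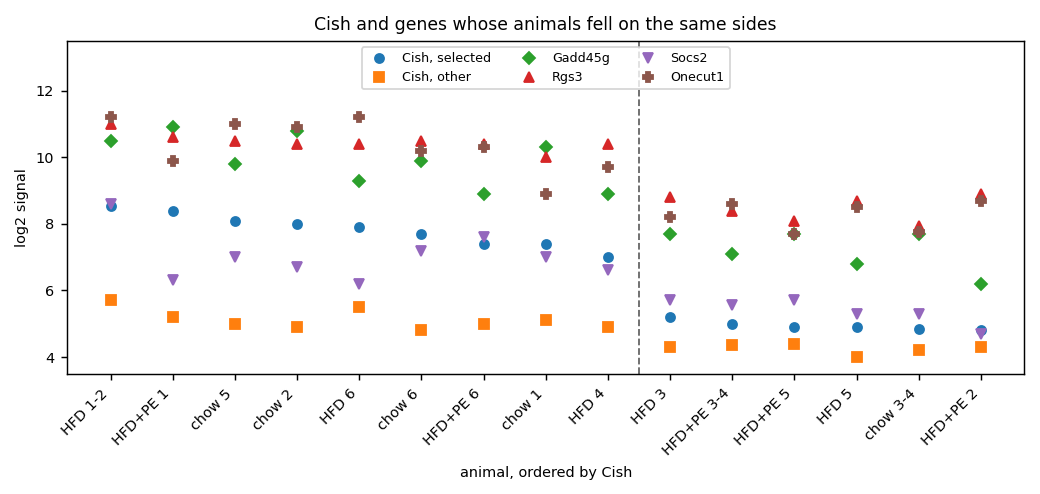
Log2 signal (vertical axis) of both Cish probe sets, Gadd45g, Rgs3, Socs2 and Onecut1 in each of the 15 animals (horizontal axis, ordered by the selected Cish probe set), with a dashed line between the 9 animals at the higher and the 6 at the lower Cish level. Every series lies higher on the left of the line than on its right, and animals of HFD+PE, HFD and chow occur on both sides.

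Ubd encodes FAT10, a ubiquitin-like protein that marks proteins for the proteasome and is induced by interferon gamma and tumour necrosis factor. Its only probe set, 1368762_at, read 9.9, 5.3, 9.25, 9.2 and 10.7 in HFD+PE animals 1, 2, 3-4, 5 and 6. It read 8.6, 4.7, 5.3, 9.6 and 9.5 in HFD animals 1-2, 3, 4, 5 and 6, and 9.5, 9.4, 8.3, 9.8 and 8.5 in chow animals 1, 2, 3-4, 5 and 6. The lower level was that of HFD+PE 2, HFD 3 and HFD 4, and no chow animal was there. The gap was 3.0. The lower level lay at the 39.6th to 48.4th percentile of all probe sets, below the array medians, and the higher one at the 85.0th to 97.2nd.

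Lymphocyte markers, of which 10 of 11 were measured, averaged 4.54 to 4.85 in HFD+PE, 4.67 to 4.86 in HFD and 4.67 to 5.03 in chow, and 4.79, 4.67 and 4.84 in the 3 animals with low Ubd. Macrophage markers, 7 of 8 measured, averaged 8.09, 7.93 and 7.54 in these 3, within the range of 7.07 to 8.41 of the HFD+PE and HFD animals. Of the fixed list around FAT10 and its inducers, 11 of 12 genes were measured; 0 passed the test described below in any comparison, and the median HFD+PE minus chow difference was -0.16, against 0.01 over all probe sets. Ubd lies on chromosome 20 in the RefSeq annotation of GRCr8, as does RT1-CE5, a class I gene. RT1-CE5 was low in HFD+PE 2 (3.5) and HFD 4 (3.4) but not in HFD 3 (7.2), so that it matched the Ubd split in 14 of 15 animals. RT1 class I genes are similar to each other, and their probe sets may read more than 1 of them. RT1-M3-1 and Gabbr1, the nearest measured genes on either side of Ubd, ranged over 0.5 and 0.6 on their brightest probe sets and had no gap above 0.1 on any.

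Fam111a encodes a protease that, in human cells, binds the replication clamp and restricts the host range of some viruses. Its only probe set, 1371970_at, read 2.9, 3.7, 8.35, 8.5 and 7.1 in HFD+PE animals 1, 2, 3-4, 5 and 6. It read 3.55, 3.4, 7.2, 8.4 and 8.2 in HFD animals 1-2, 3, 4, 5 and 6, and 3.6, 3.6, 3.35, 3.5 and 8.2 in chow animals 1, 2, 3-4, 5 and 6. The lower level was among the dimmest values of the arrays, at the 3.0th to 19.1st percentile, and whether it exceeded background was not tested. On the higher level, HFD+PE 6 and HFD 4 stood at 7.1 and 7.2 while the other 5 animals read 8.2 to 8.5. Chow 6 was the only chow animal there, against 3 of 5 in both HFD+PE and HFD. RefSeq lists a second gene of this family, Fam111al1, next to Fam111a; whether the probes tell them apart was not tested. The nearest measured neighbours, Dtx4 and Glyat, had no gap above 0.2. Of the fixed list of replication partners, 6 of 7 genes were measured and 0 passed in any comparison.

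Gpm6a and Marveld1 encode membrane proteins, the first a proteolipid known from neuronal outgrowth and the second a protein with a MARVEL domain. The only Gpm6a probe set, 1373773_at, read 8.3, 7.7, 8.75, 8.8 and 5.2 in HFD+PE animals 1, 2, 3-4, 5 and 6, 4.15, 4.0, 7.4, 8.8 and 8.0 in HFD animals 1-2, 3, 4, 5 and 6, and 4.7, 7.5, 8.55, 9.1 and 8.7 in chow animals 1, 2, 3-4, 5 and 6. Each group had animals at both levels: 4 of 5 HFD+PE, 3 of 5 HFD and 4 of 5 chow animals were at the higher one. The higher level was wide, with values spread from 7.4 to 9.1. In mice, Gpm6a is also expressed in mesothelial cells, which cover the liver. The measured mesothelial markers were Msln, Wt1, Upk1b, Lrrn4 and Krt8, with single mean levels from 3.74 to 10.08. Whether their average follows these cells in whole liver was not tested. The 5 measured of 6 mesothelial markers averaged 6.06 in HFD+PE 6, 5.77 in HFD 1-2, 5.92 in HFD 3 and 6.02 in chow 1, the animals with low Gpm6a. Over all animals they averaged 5.66 to 6.06 in HFD+PE, 5.77 to 5.92 in HFD and 6.02 to 6.56 in chow. The 4 low animals thus lay within this range, and the part of these cells in the Gpm6a levels was not tested further. The neighbours Glra3 and Wdr17 were dim, with no value above 3.4. Gpm6b was the only measured gene of the proteolipid list of 2, and it did not pass in any comparison.

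The selected Marveld1 probe set, 1372342_at, read 8.3, 7.8, 8.35, 7.6 and 5.7 in HFD+PE animals 1, 2, 3-4, 5 and 6. It read 8.2, 8.0, 5.6, 8.3 and 8.3 in HFD animals 1-2, 3, 4, 5 and 6, and 9.1, 9.7, 8.65, 8.4 and 8.7 in chow animals 1, 2, 3-4, 5 and 6. The lower level held HFD+PE 6 and HFD 4. Apart from these 2 animals, the high fat groups read 7.6 to 8.35, below the chow animals, which read 8.4 to 9.7. The second probe set, 1375180_at, stayed between 5.4 and 6.0 on all arrays and read 5.6 in HFD+PE 6 and 6.0 in HFD 4, so it did not separate them. Of the MARVEL and tight junction list, 6 of 8 genes were measured; all 6 were higher in HFD+PE than in chow, with a median difference of 0.15, and 0 passed.

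C10h5orf15 encodes a transmembrane protein whose function is little known. Its selected probe set, 1380407_at, read 8.9, 6.6, 6.2, 8.8 and 6.4 in HFD+PE animals 1, 2, 3-4, 5 and 6. It read 9.8, 6.0, 5.5, 9.1 and 9.1 in HFD animals 1-2, 3, 4, 5 and 6, and 6.7, 8.9, 9.0, 6.8 and 6.1 in chow animals 1, 2, 3-4, 5 and 6. The animals split almost evenly, with 2 of 5 HFD+PE, 3 of 5 HFD and 2 of 5 chow animals at the higher level. The second probe set, 1371619_at, was bright on every array and ran only from 9.2 to 9.9, with 9.2 to 9.9 in the animals at the higher level and 9.2 to 9.8 in those at the lower. Its largest gap was 0.1. Vdac1, the neighbour on one side, read 10.5 to 10.9 on its brightest probe set.

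Dguok encodes deoxyguanosine kinase, which salvages purine deoxynucleosides for the DNA of mitochondria. The selected probe set, 1379435_at, read 6.6, 6.7, 3.65, 3.6 and 3.6 in HFD+PE animals 1, 2, 3-4, 5 and 6. It read 3.7, 3.8, 7.0, 3.7 and 3.7 in HFD animals 1-2, 3, 4, 5 and 6, and 3.2, 3.9, 6.65, 3.5 and 6.9 in chow animals 1, 2, 3-4, 5 and 6. Both levels were tight: 3.2 to 3.9 in the 10 animals at the lower level and 6.6 to 7.0 in the 5 at the higher one. The second probe set, 1372799_at, was bright and nearly constant, at 7.9 to 8.2 on all 18 arrays. The switch thus appeared on 1 of the 2 Dguok probe sets. Of the list on deoxynucleotide salvage and mitochondrial DNA upkeep, 12 of 15 genes were measured and 0 passed, with a median HFD+PE minus chow difference of 0.11.

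Abhd3 encodes a lipase that, in mice, cleaves phosphatidylcholines with medium-chain fatty acids. The selected probe set, 1382137_at, read 6.8, 7.7, 8.15, 9.2 and 3.2 in HFD+PE animals 1, 2, 3-4, 5 and 6. It read 8.4, 8.3, 8.5, 8.3 and 3.0 in HFD animals 1-2, 3, 4, 5 and 6, and 7.7, 8.8, 8.3, 8.8 and 7.8 in chow animals 1, 2, 3-4, 5 and 6. HFD+PE 6 and HFD 6 were at the lower level, with a gap of 3.6. That level lay at the 4.5th to 8.9th percentile of the arrays, and whether it exceeded background was not tested. The second probe set, 1381773_at, was dim, at 4.1 to 5.5, and its lowest value, 4.1, fell in the same 2 animals, with 4.3 to 5.5 in the other 13. This distance of 0.2 is no larger than the difference between arrays chow 3 and chow 4, counted as 1 animal, which read 4.3 and 4.6. Acsm2, a medium-chain acyl-CoA synthetase gene, was the nearest in pattern with the levels exchanged. It read 7.7 in HFD+PE 6, 6.8 in HFD+PE 2 and 6.9 in HFD 6, against 4.4 to 5.5 in the other 12 animals. Of the ABHD and phosphatidylcholine remodelling list, all 15 genes were measured and 0 passed in any comparison.

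**Figure D2:**
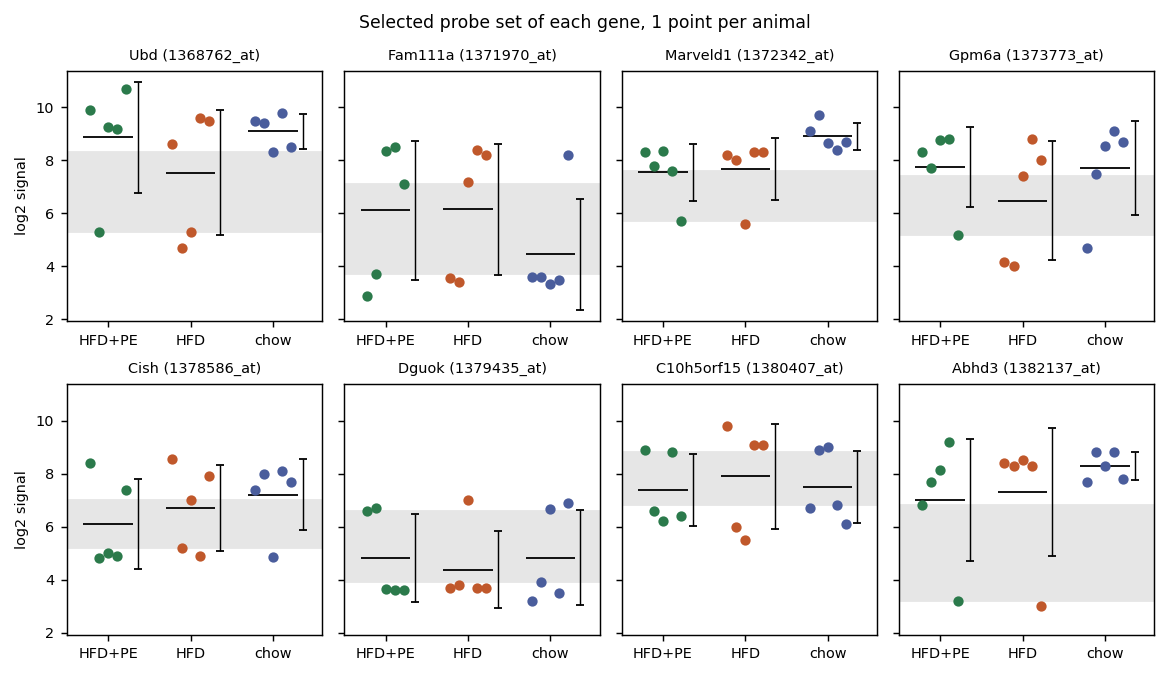
Log2 signal (vertical axis) of the selected probe set of each gene, with 1 point per animal in the HFD+PE, HFD and chow groups; horizontal lines are group means, error bars are SD (n = 5 each) and the grey band is the gap between the levels. Ubd, Marveld1 and Abhd3 have no chow animal at the lower level, and the other 5 genes have animals at both levels in all 3 groups.

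The 5 genes with a second probe set thus fell into different cases. For Cish the second probe set ordered the animals at both levels without overlap, though over a much smaller span. For Abhd3 the values did not overlap either. In both genes, the distance between the levels of the second probe set was within the difference between arrays counted as 1 animal. For Dguok, C10h5orf15 and Marveld1 the values of the second probe set overlapped between the levels and spanned 0.3, 0.7 and 0.6. The 29 probe sets of the 16 nearest measured neighbours of the 8 genes had largest gaps of 0.1 to 0.3, below every gap of a member. Genotypes and single-probe signals were not analysed here, so whether inherited alleles or variants under the probes set the levels was not tested.

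**Figure D3:**
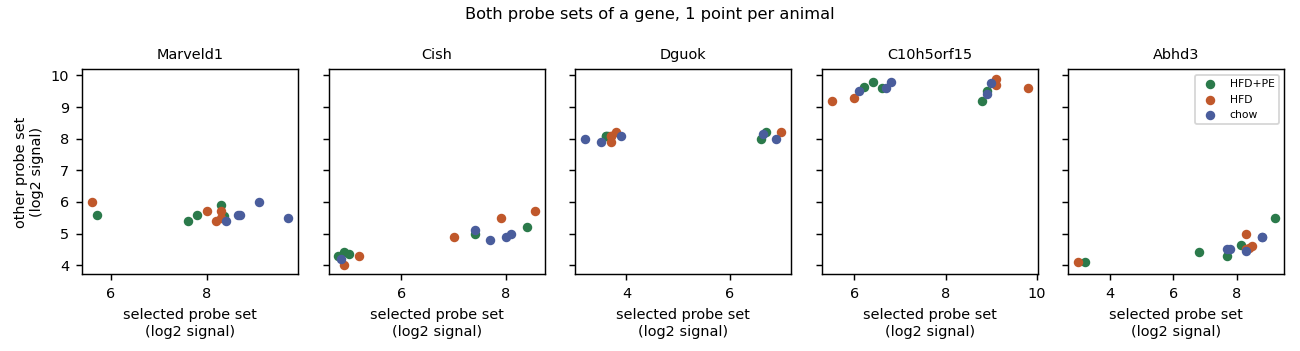
Log2 signal of the second probe set (vertical axis) against the selected probe set (horizontal axis) of Marveld1, Cish, Dguok, C10h5orf15 and Abhd3, with 1 point per animal coloured by group (HFD+PE, HFD and chow). The second probe set of Dguok stays at 7.9 to 8.2 on both sides of the gap, whereas that of Cish is 4.8 to 5.7 on the right and 4.0 to 4.4 on the left.

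Over the 8 genes, the 15 animals had 14 different combinations, and only HFD+PE 5 and HFD 5 had the same one. Any 2 animals differed at 0 to 7 of the 8 genes, with a median of 3.0. HFD+PE 1 and chow 6 were at the higher level for 7 of 8 genes, and HFD 3 for 2 of 8. Between genes, the number of animals on the same side ran from 4 of 15 for Ubd and Dguok to 13 of 15 for Marveld1 and Abhd3, with a median of 7.0 over 28 pairs of genes. Marveld1 and Abhd3 each had 13 animals at the higher level, which by itself makes most animals coincide; HFD+PE 6 was the only animal low for both.

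**Figure D4:**
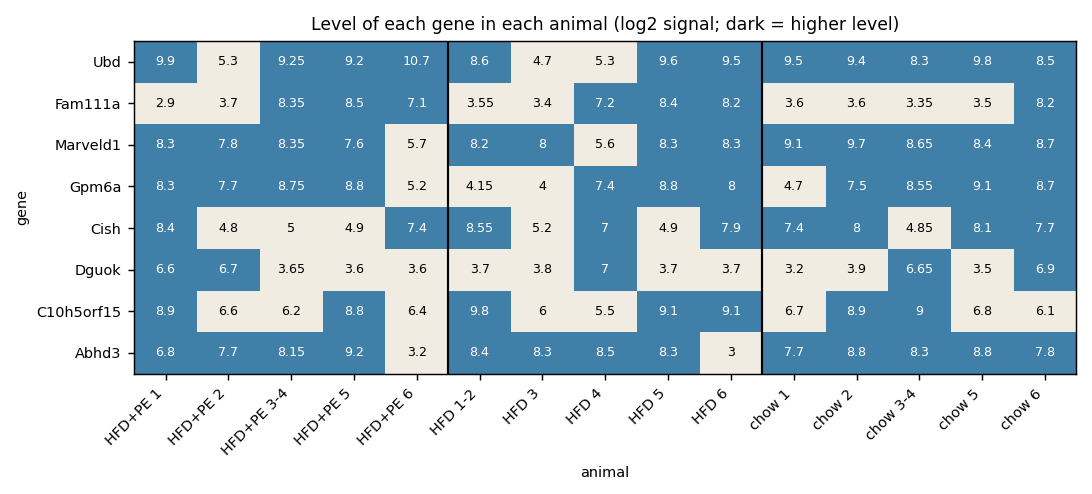
Log2 signal of the selected probe set of each gene (rows) in each of the 15 animals (columns, with lines between HFD+PE, HFD and chow); dark cells are at the higher level. HFD+PE 5 and HFD 5 are the only columns with the same combination of levels.

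The diet comparisons asked whether the levels went with the diet or the extract. In limma over all 31042 probe sets, 0 of the 13 member probe sets passed an adjusted p of 0.05 in HFD+PE against HFD, HFD+PE against chow or HFD against chow. Over the whole array 0 probe sets (0%) passed in each comparison, while 879, 2743 and 2073 had an unadjusted p under 0.05; among the member probe sets 0, 1 and 1 did, and it was Marveld1 each time. The median difference of the 8 selected probe sets was -0.08 for HFD+PE against HFD, -0.17 for HFD+PE against chow and -0.74 for HFD against chow, beside medians of 0.01, 0.01 and 0.00 over all probe sets. The standard errors of the 8 selected probe sets ran from 0.518 to 1.29 log2 units, since animals at both levels fell into the same groups. Single changes of up to several fold in signal therefore stayed within the spread between animals, such as 1.70 (SE 1.29) for Fam111a and -1.56 (SE 0.99) for Ubd in HFD against chow, with adjusted p of 0.865 and 0.825 in limma. The Fam111a difference was 0.49 with the set of hybridization controls as a covariate, 1.08 on the low set only, 2.64 without chow 6 and 1.14 without HFD 5. The Ubd difference was -0.85 without HFD 3 and -1.0 without HFD 4.

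Marveld1 had the smallest p of the 8. It averaged 7.55 ± 1.08 in HFD+PE, 7.68 ± 1.17 in HFD and 8.91 ± 0.51 in chow (SD, n = 5 each). The difference was -1.36 (SE 0.52) for HFD+PE against chow and -1.23 (SE 0.52) for HFD against chow, with adjusted p of 0.430 and 0.705 in limma. All 5 HFD+PE and all 5 HFD animals lay below all 5 chow animals, and an exact two-sided permutation test of these 2 comparisons gave p = 0.00794 each, the smallest that 5 against 5 animals can give, unadjusted and among 24 such tests of the 8 genes. The separation of HFD+PE from chow was narrow: HFD+PE 3-4 at 8.35 and chow 5 at 8.4 differ by less than the rounding step of 0.1, and array HFD+PE 4 alone read 8.4 as well. That of HFD from chow was narrow too, with HFD 5 and HFD 6 at 8.3 and chow 5 at 8.4. The HFD against chow difference was -0.71 without HFD 4, and the HFD+PE against chow difference was -0.90 without HFD+PE 6. Arrays with a high level of the hybridization controls included chow 1, 2 and 3. On arrays of the low set only, the differences were -1.22 for HFD+PE against chow and -0.92 for HFD against chow, and with the control set as a covariate -1.14 and -0.67. Macrophage markers averaged 7.07 to 8.09 in HFD+PE, 7.54 to 8.41 in HFD and 8.10 to 9.10 in chow, and mesothelial markers 5.66 to 6.06, 5.77 to 5.92 and 6.02 to 6.56 in the same order of groups; their part in the Marveld1 difference was not tested. The second Marveld1 probe set averaged 5.61 ± 0.18 in HFD+PE, 5.66 ± 0.23 in HFD and 5.62 ± 0.23 in chow (SD, n = 5 each).

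Just outside the rule lay 11 probe sets with a gap of 1.3 or 1.4. They included those of Cyp1a1, Ncald and Ogn at 1.4 and of Egr1, Cxcl1 and Pnpla3 at 1.3. The members nearest the threshold on its inner side were Cish with a gap of 1.8 and Marveld1 with 1.9. Over all probe sets the median of the largest gap was 0.1 and its 99th percentile 0.5.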

How the data were processed

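The deposited table holds log2 signals per probe set, which the authors made with Affymetrix Expression Console and RMA (background correction, quantile normalization and probe summary), per the submitters' processing notes; versions and scan dates are not stated there. All 559782 values were multiples of 0.1. Precision is set by 5 animals per group and by the rounding. Without 57 control probe sets, 31042 remained: 20826 named 1 gene, 436 several and 9780 none in the platform annotation.

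Groups were taken from the sample titles. Alike arrays were averaged, which left 15 animals; this is inferred from the values, and the labels call all 18 arrays biological replicates. Diet groups were tested in R 4.3.3 with limma 3.58.1 (lmFit, eBayes, Benjamini-Hochberg adjustment over 31042 probe sets, threshold 0.05), and with exact permutation in scipy 1.17.1. The limma code was tried on simulated data with normal spread, which held no genes with separate levels within a group, as the members have. Levels were cut at the largest gap over animals with at least 2 on each side. List genes were read from their brightest probe set. Genes alike in pattern had a gap of at least 1.0 and at most 1 animal on another side; up to 3 per gene were named. Neighbours are the nearest measured protein-coding genes in RefSeq GRCr8. Promoters are the 250 bases before the start. Members, lists and rules were chosen with earlier results of these data known. Alternatives are given in the closing section.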

Additional observations from a re-analysis of the deposited data

Results flagged for a closer look

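In 54 groups of 5 animals, 8 values lay apart from the other 4 by over 0.71 of the group's range, Dixon's 95% limit, which chance passes in about 1 group in 20. All of them come from probe sets chosen for a gap in these same values, and Rgs3 was also chosen for its likeness to Cish. They therefore restate the choice and are given as a description, not as a test. Single animals at the lower level were Ubd in HFD+PE 2 (5.3, others 9.2 to 10.7), Marveld1 in HFD+PE 6 (5.7, others 7.6 to 8.35) and in HFD 4 (5.6, others 8.0 to 8.3), Abhd3 in HFD 6 (3.0, others 8.3 to 8.5) and Cish in chow 3-4 (4.85, others 7.4 to 8.1). Rgs3 stood apart in the same animal, chow 3-4, at 7.95, with 10 to 10.5 in the others. Single animals at the higher level were Dguok in HFD 4 (7.0, others 3.7 to 3.8) and Fam111a in chow 6 (8.2, others 3.35 to 3.6). Chow 3-4 is the mean of 2 arrays.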

How the results depend on the processing

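The count of probe sets that passed, 0 in each comparison, moved with the number of arrays. With all 18 arrays as separate animals 0 passed for HFD+PE against HFD, 107 for HFD+PE against chow, 8 for HFD against chow and 25 in the test over the 3 groups. With the replicate number as a block as well, the counts were 0, 75, 7 and 32. The deviations of same-numbered arrays had correlations from -0.305 to 0.153, which were over 0.1 in 4 of 18 pairs. Among the 6 arrays of another group, an array was closest to its own number in 5 of 36 cases. Whether same-numbered samples share more than the number was not tested. On arrays of the low control set the counts were 0, 4, 2 and 3. Leaving out 1 animal at a time gave 0 to 36 for HFD+PE against chow (36 without HFD+PE 3-4), 0 to 2 for HFD against chow and 0 to 10 over the 3 groups. Probe sets with a gap numbered 64 at 1.0 and 15 at 2.0 instead of 30; all 8 members had a gap over the 15 animals, while Cish and Marveld1 fell out at 2.0 and Abhd3 and Marveld1 with at least 3 arrays on each side, and Dguok with a mean signal of at least 5.

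No member passed an adjusted p of 0.05 in limma under any alternative. In the permutation test, which is unadjusted, only Marveld1 crossed 0.05. Its unadjusted limma p was also under 0.05 in the same 2 comparisons, at 0.0179 for HFD+PE against chow and 0.0298 for HFD against chow. Signs of differences that had not passed turned. For HFD+PE against HFD, Fam111a was -0.04 and became 0.77 with 18 arrays, with or without the replicate block, 0.68 with the control set as a covariate and 0.75 on the low set. For HFD against chow, Cish was -0.50 and became 0.20 with 18 arrays, with or without the block. For HFD+PE against chow, Gpm6a was 0.04 and became -0.15 with the covariate and -1.14 on the low set, and C10h5orf15 was -0.12 and became 0.13 with the covariate. On the brightest probe set, Dguok was 0.07 for HFD against chow, and C10h5orf15 was -0.07 for HFD against chow and 0.01 for HFD+PE against HFD. Without single animals, HFD+PE against HFD ran from -0.73 to 0.76 for Fam111a, -0.65 to 0.33 for Marveld1, -0.02 to 1.11 for Dguok and -1.36 to 0.66 for Abhd3. HFD+PE against chow ran from -0.69 to 0.66 for Ubd, -0.71 to 0.68 for Gpm6a and -0.50 to 0.26 for C10h5orf15. HFD against chow ran from -1.10 to 0.07 for Dguok, -0.07 to 1.0 for C10h5orf15 and -1.28 to 0.10 for Abhd3, which was -0.98 with all animals and 0.10 without HFD 6. The cause of these turns was not tested. The animals at each level were the same in number with the cut at the middle of the range or arrays centred on their median, and read from the other probe set they moved in 11 of 15 cases.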
